A study of Mus musculus with 7 samples.

Results

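The 8 genes Ms4a4a, Ms4a4b, Ms4a4c, Ms4a6b, Ms4a6c, Ms4a6d, Ms4a7 and Ms4a8a of the Ms4a membrane protein family were examined in microglia sorted from old and young mice after ischemia. They were selected by symbol from the 50686 genes quantified in each library. The samples were Bodipy+ microglia of 4 young (3 to 4 months) and 3 old (21 to 22 months) male C57BL/6 mice, which had received no drug. Bodipy stains the neutral lipids of lipid droplets, so that lipid-laden cells were compared in both ages. All 7 mice had undergone a middle cerebral artery occlusion of 45 min, a model of stroke, and cells were sorted as CD11b+ and CD45low after 4 days. Each library came from 1 mouse. Nonischemic mice were not analysed here, so a response to ischemia cannot be told apart from the basal level of a gene.

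Ms4a proteins cross the membrane several times and sit in the plasma membrane or in endosomes of immune cells, where they associate with receptors and tune their signalling. The best known members are Ms4a1, the B cell antigen CD20, and Ms4a2, the beta chain of the high-affinity IgE receptor of mast cells. In the brain, Ms4a7 is used as a marker of border-associated and blood-derived macrophages, and the human MS4A4A and MS4A6A region is known for variants that influence soluble TREM2 and the risk of Alzheimer's disease. The mouse genes form a cluster on chromosome 19, and several of them are tandem duplicates.

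In GRCm38 the 8 genes, all annotated as protein-coding, lay within 537379 bases of chromosome 19. From the first to the last they were Ms4a8a (11067471 to 11081102), Ms4a7 (11321039 to 11336146), Ms4a4a (11375523 to 11392790), Ms4a4c (11404770 to 11427246), Ms4a4b (11443553 to 11467055), Ms4a6c (11469366 to 11482192), Ms4a6b (11516512 to 11531256) and Ms4a6d (11586604 to 11604849). Ms4a8a, Ms4a7 and Ms4a6d are on the minus strand and the others on the plus strand. In 2 pairs of these genes, stretches of sequence are shared both upstream of the start and in the transcripts. The first pair below, Ms4a4b and Ms4a4c, were the genes whose old and young libraries did not overlap, and the second pair, Ms4a6b and Ms4a6c, were among the most abundant. Each sequence holds the 250 bases before the gene's start in RefSeq (GRCm38.p6), 5′ to 3′. In the first pair capitals mark the longest run that both windows share, 20 bases long. In the second pair capitals mark the ISRE-like motif GAAANNGAA.
Ms4a4b, chr19:11443308-11443557, plus strand: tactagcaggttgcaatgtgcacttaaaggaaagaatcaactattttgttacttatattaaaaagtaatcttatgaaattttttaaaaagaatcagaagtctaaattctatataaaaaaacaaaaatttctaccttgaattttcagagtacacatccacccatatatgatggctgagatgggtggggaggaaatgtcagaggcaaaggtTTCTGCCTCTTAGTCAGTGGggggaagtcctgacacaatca
Ms4a4c, chr19:11407411-11407660, plus strand: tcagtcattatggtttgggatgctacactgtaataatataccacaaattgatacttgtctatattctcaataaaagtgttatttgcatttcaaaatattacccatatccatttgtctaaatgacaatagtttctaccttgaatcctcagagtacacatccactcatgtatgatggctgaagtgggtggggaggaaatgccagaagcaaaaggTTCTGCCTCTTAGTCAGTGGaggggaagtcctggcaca
Ms4a6b, chr19:11518309-11518558, plus strand: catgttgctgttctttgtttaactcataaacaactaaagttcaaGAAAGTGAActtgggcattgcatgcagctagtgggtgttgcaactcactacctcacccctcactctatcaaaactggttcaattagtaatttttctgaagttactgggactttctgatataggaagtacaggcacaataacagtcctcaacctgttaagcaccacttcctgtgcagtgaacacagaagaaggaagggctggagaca
Ms4a6c, chr19:11469118-11469367, plus strand: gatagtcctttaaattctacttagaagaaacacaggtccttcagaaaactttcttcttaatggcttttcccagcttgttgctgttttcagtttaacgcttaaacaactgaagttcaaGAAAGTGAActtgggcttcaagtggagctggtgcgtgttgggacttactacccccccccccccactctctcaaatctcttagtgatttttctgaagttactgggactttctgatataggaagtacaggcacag
The RefSeq starts of Ms4a4c and Ms4a6b lie within the GENCODE span of the gene given above, and those of Ms4a4b and Ms4a6c lie a few bases from its start. The shared run ended 22 bases before the start of Ms4a4b and 19 bases before that of Ms4a4c. Ms4a6b and Ms4a6c shared a run of 48 bases, which lay 118 to 71 bases before the start of Ms4a6b and 49 to 2 bases before that of Ms4a6c. The match GAAAGTGAA was the same in both genes, 206 to 198 bases before the start of Ms4a6b and 133 to 125 bases before that of Ms4a6c.

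RefSeq windows were at hand for 7 of the 8 members. GAAANNGAA, searched on both strands, occurred in 3 of these 7 genes, namely Ms4a6b, Ms4a6c and Ms4a7, and in 7.13% of the 32841 promoter windows of the genome. In Ms4a7, which has a pair of RefSeq starts, 1 match lay before each start. The GAS-like motif TTCNNNGAA occurred in 0 of the 7 genes and in 7.02% of all windows, and the PU.1-like core GAGGAAG in 0 of 7 and in 10.6%. With matches to a single motif there was no overlap between motifs, and a match of letters is a description and not a binding site.

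Libraries held 36574083 to 53002386 expected counts, and all 8 genes passed the filter on low counts. Levels between genes were compared as TPM, which is scaled by gene length. The order of mean TPM over the 7 libraries was Ms4a6d at 332, Ms4a6c at 252, Ms4a7 at 206, Ms4a6b at 173, Ms4a4c at 80.001, Ms4a4a at 66.5, Ms4a8a at 2.37 and Ms4a4b at 2.24. Thus 6 genes were abundant and a pair was scarce, with mean TPM ranks from 412 (Ms4a6d) to 10744 (Ms4a4b) among the 50686 genes. Not every neighbour in this order was separated. Ms4a6d exceeded Ms4a6c in 7 of 7 libraries, and Ms4a4a exceeded Ms4a8a in 7 of 7. Ms4a7 exceeded Ms4a6b in 3 of 7 libraries, Ms4a4c exceeded Ms4a4a in 4 of 7 and Ms4a8a exceeded Ms4a4b in 2 of 7, so that these neighbours changed places between mice. Ms4a6c exceeded Ms4a7 in 5 and Ms4a6b exceeded Ms4a4c in 6 of the 7.

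**Figure D1:**
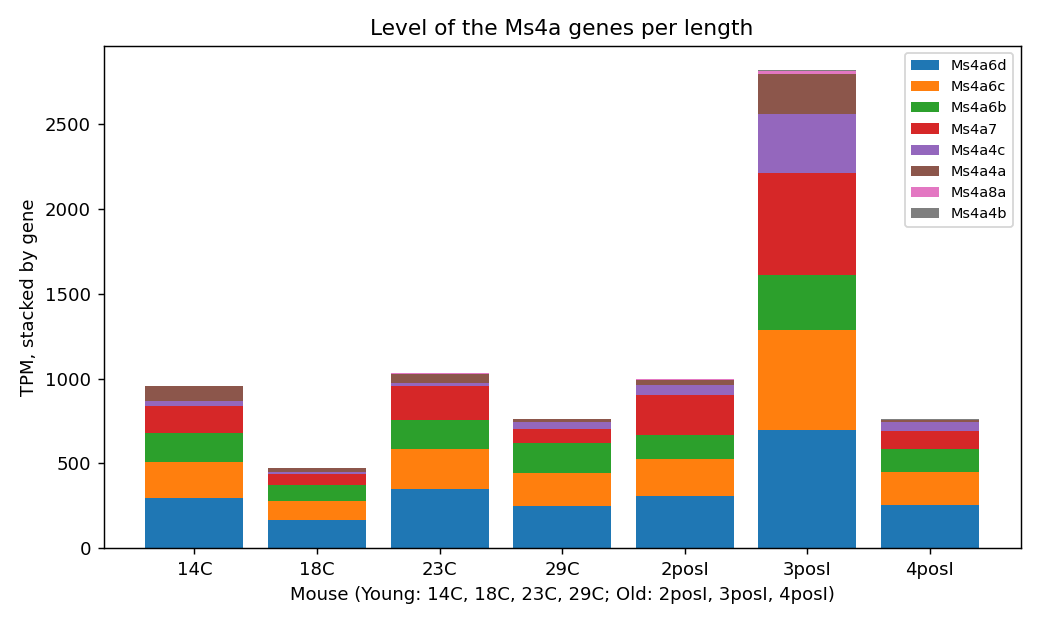
TPM of the 8 Ms4a genes, stacked by gene, in each of the 7 mice (1 library each). The bars reach 472 to 1031 in the 4 young mice and 998, 2820 and 759 in old mice 2posI, 3posI and 4posI.

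Summed over the 8 genes, TPM was 957 in young mouse 14C, 472 in 18C, 1031 in 23C and 762 in 29C, and 998 in old mouse 2posI, 2820 in 3posI and 759 in 4posI. Old mice 2posI and 4posI thus lay within the young range, and 3posI lay above all others. The 3 Ms4a6 genes made up 71.1%, 78.7%, 73.4% and 81.5% of this sum in the young mice 14C, 18C, 23C and 29C, and 67.1%, 57.2% and 77.2% in the old mice 2posI, 3posI and 4posI. Their share was lowest in the library with the highest sum.

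Levels between libraries were compared as CPM, the counts of a gene relative to the library size after scaling by TMM factors. None of the 8 genes passed the threshold of 0.05 on the p of edgeR's quasi-likelihood test, adjusted over 17559 genes by the Benjamini-Hochberg method, against 0.803% of all genes tested in either direction. All 8 had a positive log2 fold change, with a median of 1.30 against -0.01 over all genes tested. At an unadjusted edgeR p under 0.05, 5 of the 8 were higher in old mice (Ms4a4b, Ms4a4c, Ms4a6c, Ms4a7 and Ms4a8a), against 10.1% of all genes. DESeq2 called 3 of the 8 higher (Ms4a4b, Ms4a4c and Ms4a8a), against 4.24% of all genes, and limma-voom called 0. Neighbouring duplicates that share sequence and a library are not independent of each other, so these counts are no count of replicates.

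The old and the young mice carry codes of different styles (2posI, 3posI and 4posI against 14C, 18C, 23C and 29C). Whether this marks separate processing runs is not stated, and such runs and age cannot be told apart.

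The highest levels of the family came from 1 old mouse. All 8 genes were highest in 3posI, which was the highest of the 7 libraries for 21.5% of all genes tested. Old mouse 4posI was the lowest old library in 7 of the 8 genes, and young mouse 18C was the lowest of all 7 libraries in 6. Old mouse 2posI lay above the young median in 7 of the 8 genes and 4posI in 3. Without 3posI, 6 of the 8 log2 fold changes were positive, their median was 0.40 and that of all genes was -0.02.

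**Figure D2:**
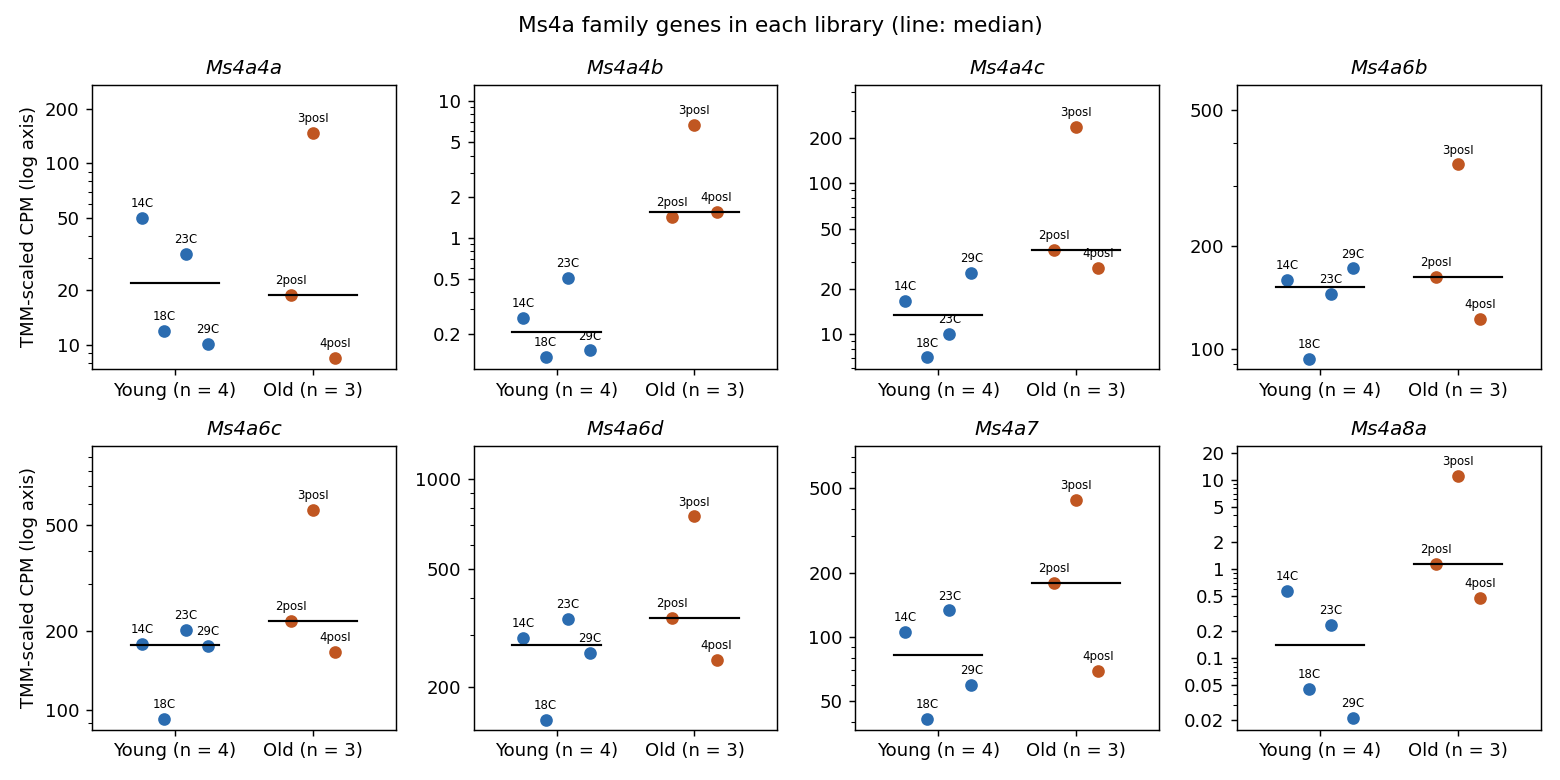
TMM-scaled CPM of each Ms4a gene (log axis, scaled separately per gene) in the 4 young (blue) and 3 old (orange) libraries, each point labelled with its mouse and lines at the group median. 3posI is the highest point in all 8 genes, and in Ms4a4b and Ms4a4c alone every old point lies above every young one.

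Ms4a4b, which is known from T cells, where it modulates activation, was near the limit of detection in young mice. It measured 0.260, 0.134, 0.510 and 0.151 CPM in the young mice 14C, 18C, 23C and 29C, and 1.43, 6.75 and 1.55 CPM in the old mice 2posI, 3posI and 4posI. The old libraries all lay above the young range, as they did for 8.67% of all genes tested, and this held for 2posI and 4posI as well as for 3posI. On the log2 scale old exceeded young mice by 3.60 (edgeR, SE 0.71, adjusted p = 0.0591), and by 2.48 without 3posI (edgeR, adjusted p = 0.0972). These levels rested on 6.45 to 25.8 expected counts per young library and 47.7 to 264 per old library. DESeq2 called the gene (adjusted p = 3.74e-05), as did edgeR without the filter on low counts (adjusted p = 0.0258) and with an offset for effective length (adjusted p = 0.0471). RSEM's effective length of Ms4a4b, which depends on the isoforms it assigns, varied between libraries from 581 to 1018 bases.

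Markers of T and NK cells were examined beside Ms4a4b. Of the 9 tested of 10 listed, 9 had a positive log2 fold change (median 4.26), and 0 passed with edgeR. At an unadjusted p under 0.05 there were 8 (18.9% of all genes in either direction). DESeq2 called 2 higher in old mice, against 4.24% of all genes. In 4 of the 9 (Cd8a, Cd8b1, Lck and Nkg7) the old libraries all lay above the young range, against 8.67% of all genes. However, Cd3d, Cd3e, Cd3g, Cd8a, Cd8b1, Trbc2 and Nkg7 passed the filter on low counts through old libraries only. Their direction, and their part in these counts and in the median, were therefore largely set by that filter. The summed level of the list was 1.53 to 10.9 CPM in young mice and 12.2, 9.84 and 6.07 CPM in the old mice 2posI, 3posI and 4posI. Much of this sum came from Cd4, which other immune cells also express, at 10.2 CPM in young mouse 23C. Without Cd4, a sum added after its values were seen, it was 0.215 to 0.706 CPM in young mice and 1.94, 4.06 and 4.84 CPM in these old mice. The ages did not overlap in this sum, whereas they overlapped with Cd4 kept. The sum without Cd4 was highest in 4posI, whereas Ms4a4b was highest in 3posI. Single markers were scarce. In old mouse 2posI the T cell receptor subunits Cd3d, Cd3e and Cd3g were at 0, whereas Cd8a measured 0.298, Cd8b1 0.417 and Lck 1.01 CPM. The part of T cells in the level of Ms4a4b was not tested. In bulk samples such as these, fewer cells of a type and less RNA per cell cannot be told apart.

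Ms4a4c, known as an interferon-inducible gene of myeloid cells, was the other gene without overlap between ages. It measured 16.7, 7.05, 10.0 and 25.5 CPM in the young mice 14C, 18C, 23C and 29C, and 36.4, 235 and 27.6 CPM in the old mice 2posI, 3posI and 4posI. Old mouse 4posI lay just above young mouse 29C, and 3posI was 6.46 times as high as the next library. edgeR gave a log2 fold change of 2.75 (adjusted p = 0.123, SE 0.76), and DESeq2 called the gene (adjusted p = 0.0308). Without 3posI the edgeR value was 1.11 (adjusted p = 0.235). Over the 7 libraries its profile was nearest to those of Cxcr2, a chemokine receptor, and Ifitm6. The root mean square differences of mean-centred log2 CPM were 0.176 and 0.392. Cxcr2 rested on 7 to 34 expected counts per young library. It is on the list of 8 neutrophil markers examined below, of which only 3 were highest in 3posI.

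Ms4a4a is a macrophage protein that associates with the fungal receptor Dectin-1. It measured 49.9, 12.01, 31.7 and 10.2 CPM in the young mice 14C, 18C, 23C and 29C, and 18.9, 146 and 8.53 CPM in the old mice 2posI, 3posI and 4posI. The ages overlapped, and 4posI was the lowest of all 7 libraries. The edgeR log2 fold change of 1.16 (adjusted p = 0.523, SE 0.91) turned to -0.92 without 3posI (adjusted p = 0.498), so that its direction rested on that library. Summing the counts of Ms4a4a, Ms4a4b, Ms4a4c and Ms4a4d gave 1.97 on the log2 scale (edgeR, adjusted p = 0.213). The profile of Ms4a4a was nearest to those of Pltp and Rara, at differences of 0.288 and 0.308 by the same measure.

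The 3 Ms4a6 genes are expressed by macrophages and microglia. Ms4a6d is known to form complexes with the complement receptor Vsig4. Ms4a6d measured 292, 156, 340 and 261 CPM in the young mice 14C, 18C, 23C and 29C, and 342, 750 and 247 CPM in the old mice 2posI, 3posI and 4posI. Ms4a6c measured 178, 92.7, 201 and 175 CPM in the same young mice and 218, 568 and 166 CPM in the old mice. Ms4a6b measured 159, 93.2, 144 and 172 CPM in the young and 162, 346 and 122 CPM in the old mice. The ages overlapped in all 3 genes, since 4posI lay inside the young range, and in each of them 18C was lowest and 3posI highest. The edgeR log2 fold changes were 0.77 for Ms4a6d (adjusted p = 0.324, SE 0.39), 0.97 for Ms4a6c (adjusted p = 0.261, SE 0.42) and 0.56 for Ms4a6b (adjusted p = 0.417, SE 0.35). Without 3posI they were 0.17, 0.25 and -0.000497 (adjusted p = 0.803, 0.689 and 0.999, edgeR). The change of direction of Ms4a6b is one around 0.

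The profiles of Ms4a6c and Ms4a6d were each other's nearest. Among all genes tested, the smallest root mean square difference of mean-centred log2 CPM over the 7 libraries to either gene was 0.116, that between them. The next genes were Cyp4f18 for Ms4a6c (0.139) and Fxyd5 for Ms4a6d (0.139), and Vill (0.108) and Aldh3b1 (0.126) were nearest to Ms4a6b. The likeness covers 7 libraries, 1 of which stands apart, and reads that RSEM divided among copies enter both profiles. Expected counts of Ms4a4b, Ms4a4c and the 3 Ms4a6 genes differed from a whole number by more than 0.001 in all 7 libraries, so reads were divided between these and other genes. Of the 50-base stretches of their GENCODE transcripts, 2.31% of those of Ms4a6d and 5.85% of those of Ms4a6c also occurred in Ms4a6b, and 7.73% of those of Ms4a4c occurred in Ms4a4b. Ms4a6c overlaps BE692007, a transcript of the opposite strand, over 49.6% of its stretches, and without strand the reads of that overlap cannot be told apart. The level of Ms4a6c is therefore uncertain in that part. BE692007 itself measured 11.3 to 21.9 CPM in young and 17.6 to 33.1 CPM in old mice. The counts of Ms4a6b, Ms4a6c and Ms4a6d summed gave 0.78 on the log2 scale (edgeR, adjusted p = 0.319).

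Ms4a7, the macrophage marker, measured 106, 41.5, 134 and 59.6 CPM in the young mice 14C, 18C, 23C and 29C, and 180, 441 and 69.6 CPM in the old mice 2posI, 3posI and 4posI. Old mice 2posI and 3posI lay above all young mice, and 4posI lay below the young median of 82.7 CPM. Old minus young was 1.43 on the log2 scale (edgeR, SE 0.59, adjusted p = 0.236), and 0.55 without 3posI (edgeR, adjusted p = 0.592). Its expected counts were whole in all 7 libraries. The genes nearest to its profile were Prss16 (0.223) and Msrb1 (0.239).

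Ms4a8a, known from alternatively activated macrophages, was scarce. It measured 0.563, 0.0447, 0.235 and 0.0215 CPM in the young mice 14C, 18C, 23C and 29C, and 1.13, 11.01 and 0.475 CPM in the old mice 2posI, 3posI and 4posI. The young libraries held 26, 2, 12 and 1 expected counts, and 4posI, with 22, lay within their range of CPM. Its log2 fold change was the largest of the 8, at 4.26 (edgeR, SE 1.24, adjusted p = 0.132), and it rested mostly on 3posI, which was 9.73 times as high as the next library. Without it the value was 1.87 (edgeR, adjusted p = 0.391). DESeq2 called the gene over all libraries (adjusted p = 0.0343).

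**Figure D3:**
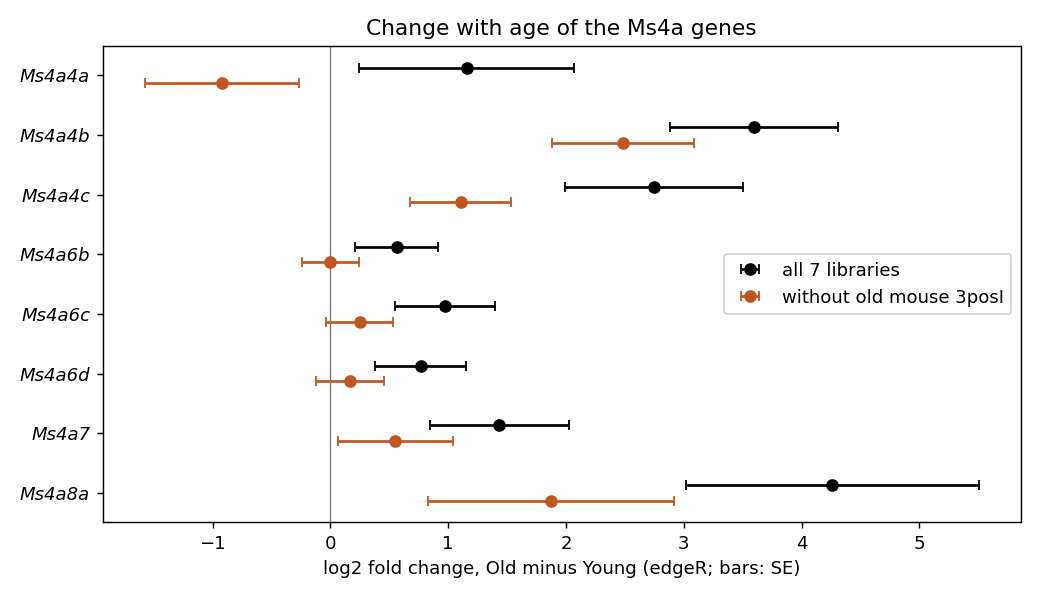
Log2 fold change (old minus young) of each Ms4a gene from edgeR, with bars of 1 SE, over all 7 libraries (black) and without old mouse 3posI (orange). Values run from 0.56 to 4.26 with all libraries, and without 3posI Ms4a4a falls to -0.92 and Ms4a6b to about 0.

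Old mouse 3posI also stood apart in its cell type markers. The summed level of 9 microglia markers such as P2ry12, Tmem119 and Cx3cr1 was 13140 to 21629 CPM in young mice, 15571 and 14684 CPM in old mice 2posI and 4posI, and 7109 CPM in 3posI. The sorted cells therefore carried microglia markers at high level in every library, with the lowest sum in 3posI. The summed level of 8 monocyte markers was 183 to 492 CPM in young mice and 452, 2889 and 222 CPM in the old mice 2posI, 3posI and 4posI. All 8 monocyte markers were highest in 3posI, as were all 8 Ms4a genes. Among them, the monocyte surface protein Ly6c2 measured 0.946 to 2.86 CPM in young mice and 15.3, 162 and 9.59 CPM in the old mice 2posI, 3posI and 4posI, and the chemokine receptor Ccr2 2.06 to 19.3 CPM and 14.1, 231 and 9.09 CPM. Border-associated macrophage markers (9 listed) summed to 813 to 1392 CPM in young mice and to 1058, 2131 and 825 CPM in these old mice, with 6 of the 9 highest in 3posI. In every library but 3posI most of that sum was Stab1, the only one of the 9 with a negative log2 fold change. Without Stab1, as chosen after its values were seen, the others summed to 138 to 434 CPM in young mice and 488, 1254 and 162 CPM in the old mice 2posI, 3posI and 4posI, which puts 2posI above the young range. The sort kept CD45low cells, which is meant to leave out most blood-derived cells, and the part of such cells in the levels of the Ms4a genes was not tested.

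**Figure D4:**
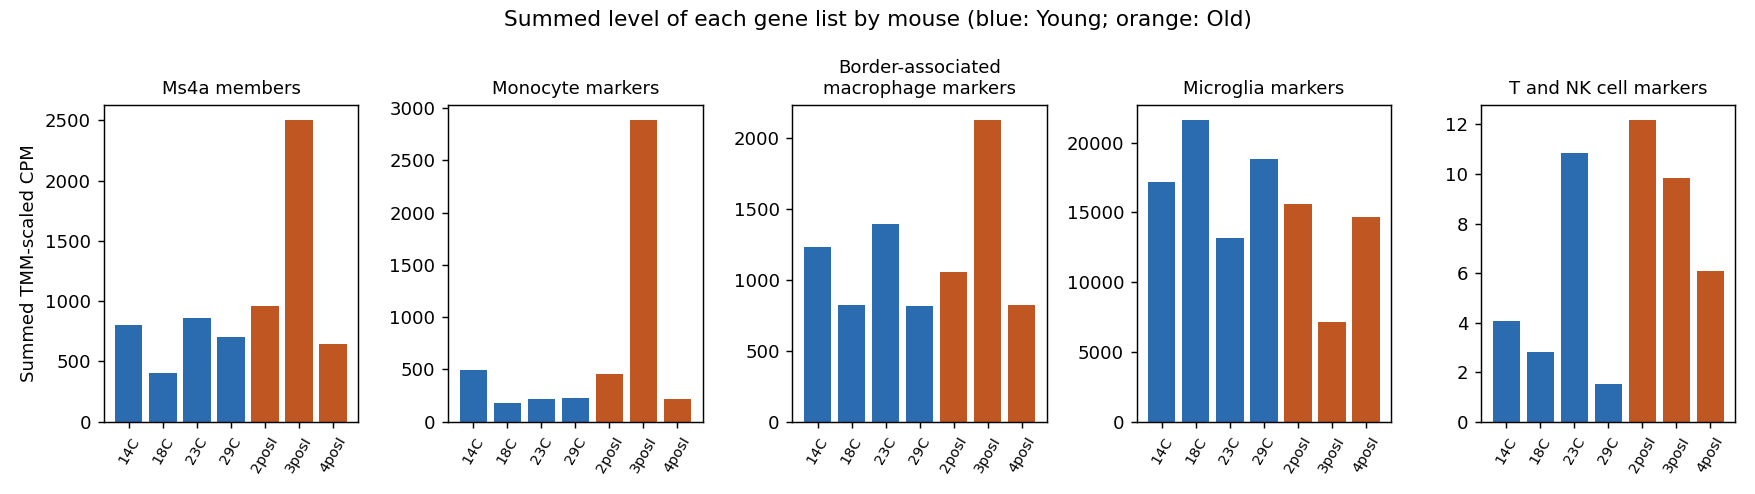
Summed TMM-scaled CPM of the 8 Ms4a genes and of 4 marker lists in each mouse (blue, young; orange, old; each panel has its own axis from 0). In 3posI the Ms4a sum reaches 2504 and the monocyte sum 2889, and the microglia sum is lowest at 7109.

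As a group, the monocyte markers had 8 of 8 log2 fold changes above 0 (median 3.69, or 0.91 without 3posI), the border-associated macrophage markers 8 of 9 (median 0.73, or 0.15 without 3posI) and the microglia markers 2 of 8 tested (median -0.36, or -0.04 without 3posI). edgeR called 0 genes of these lists. At an unadjusted p under 0.05 there were 6 of 8, 1 of 9 and 1 of 8 genes, of which the last 2 shares lie below the 18.9% of all genes. DESeq2 called 2, 1 and 0 higher in old mice, against 4.24% of all genes. The other lists were summed likewise. B cell markers reached 54.7 to 218 CPM in young and 85.0 to 302 CPM in old mice, mostly from Ighm, and the B cell factor Pax5 was at 0 in every library. Neutrophil markers reached 17.0 to 143 CPM in young and 51.0 to 167 CPM in old mice. Dendritic cell markers reached 4.37 to 7.90 CPM in young mice and 13.02, 60.1 and 11.8 CPM in the old mice 2posI, 3posI and 4posI. In 3posI most of this was Ccr7, at 44.8 CPM. Without Ccr7, as chosen after its values were seen, the sum was 3.96 to 6.86 CPM in young mice. In the old mice 2posI, 3posI and 4posI it was 9.71, 15.3 and 8.77 CPM, still without overlap. Of the 6 genes 4 had a positive log2 fold change, and Xcr1 and Zbtb46 had -0.48 and -0.81. At an unadjusted p under 0.05 there were 5 of 6 in either direction, edgeR called 0 and DESeq2 called 1 higher. Clec9a passed the filter on low counts through old libraries only. Mast cell markers reached at most 4.76 CPM.

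The other genes of the family were mostly scarce or not detected. Of 15 further genes listed, 13 were in the files, 5 were at 0 in all libraries and 5 were tested, of which edgeR and DESeq2 called 0 and none had an unadjusted p under 0.05. Ms4a14 measured 1.45 to 7.002 CPM in young mice and 4.56, 25.2 and 3.39 CPM in the old mice 2posI, 3posI and 4posI, or 1.55 for old minus young on the log2 scale (edgeR, adjusted p = 0.306). Its highest library was again 3posI. Ms4a1 (CD20) was at most 0.486 CPM and Ms4a2 at most 0.0894 CPM, so the defining Ms4a genes of B cells and mast cells were near or at 0. The related Tmem176a and Tmem176b, tetraspan proteins encoded elsewhere, were abundant, with a mean TPM of 134 and 173. They had log2 fold changes of -0.04 and -0.10 and were lowest in 3posI, at 61.8 and 102 CPM.

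Genes whose products work with Ms4a proteins were listed next. Of 9 listed, 8 were tested, 4 had a positive log2 fold change, edgeR called 0, and 2 had an unadjusted p under 0.05 (Clec7a and Card9), a share near the 18.9% of all genes. Among those 4, Fcer1a passed the filter on low counts through old mouse 2posI alone and Tnfrsf18 through 3posI alone, which largely sets their direction. Clec7a, which encodes Dectin-1, the partner of Ms4a4a, measured 116, 140, 125 and 159 CPM in the young mice 14C, 18C, 23C and 29C, and 211, 188 and 223 CPM in the old mice 2posI, 3posI and 4posI. The old libraries all lay above the young ones, as for 8.67% of all genes tested, and 3posI was the lowest of the old mice. edgeR gave a log2 fold change of 0.61 (adjusted p = 0.0847, SE 0.14), and DESeq2 called it. Card9, the adaptor downstream of Dectin-1, lay lower in every old mouse than in any young mouse, as did 1592 of the 17559 genes tested. It measured 20.0, 21.2 and 22.5 CPM in the old mice against 26.3, 34.8, 30.9 and 23.5 CPM in the young mice (edgeR log2 fold change -0.45, SE 0.16, adjusted p = 0.184). The receptor Trem2 and its adaptor Tyrobp had log2 fold changes of -0.00 and -0.05. Vsig4, the partner of Ms4a6d, lies on chromosome X and was not tested. It measured 0.268 to 4.30 CPM in young mice and 21.5, 19.2 and 0.583 CPM in the old mice 2posI, 3posI and 4posI.

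The other genes of the cluster were examined for their position alone. Between the first and last Ms4a gene lay 16 genes without an Ms4a symbol, of which 7 were tested, 4 had a positive log2 fold change and 0 were called by edgeR. At an unadjusted p under 0.05 there were 2 of 7 (AW112010 and Gm8369, against 18.9% of all genes). DESeq2 called 1 higher in old mice (AW112010, against 4.24% of all genes). AW112010, a long noncoding RNA named here after its values were seen, measured 17.3, 17.7, 17.5 and 27.3 CPM in the young mice 14C, 18C, 23C and 29C, and 36.4, 32.2 and 27.9 CPM in the old mice 2posI, 3posI and 4posI. Its old libraries lay above the young ones without 3posI being the highest, whereas all 11 tested Ms4a symbols were highest in 3posI. Among these, however, Ms4a1 and Ms4a4d passed the filter on low counts through 3posI alone. Their highest library was therefore largely set by that filter. For AW112010 edgeR gave a log2 fold change of 0.69 (adjusted p = 0.125, SE 0.19).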

How the data were processed

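RNA of FACS-sorted Bodipy+ microglia from 3 old and 4 young males was sequenced after Smart-seq2 amplification without strand. The labels name a PureLink kit for extraction and the study's methods PicoPure. No molecular identifiers are named, so PCR copies count as reads. Reads were checked with FastQC 0.11.5, trimmed with skewer, mapped to GRCm38 with STAR and quantified with RSEM on GENCODE m15 by the authors, who deposited expected counts, which are not normalized, and TPM values scaled to length and library. For STAR and RSEM, versions were not given in the sources used here. An effective length for each gene, used as an offset in 1 alternative, and FPKM values, not used here, were also deposited.

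Expected counts were rounded. A minimum was set at more than 10 expected counts in 1 or more libraries, which 18173 genes passed. As in the study's methods, 614 of these on the sex chromosomes or the mitochondrial genome were then removed, which left 17559. Chromosomes and positions were those of GENCODE vM21 (GRCm38), which lacks 224 of the 50686 identifiers, 42 of them tested. edgeR 4.0.16 in R 4.3.3 was used for TMM factors and for the quasi-likelihood test of old against young, with Benjamini-Hochberg adjustment and a threshold of 0.05. limma-voom (limma 3.58.1), the test of the study's methods, and DESeq2 1.42.0 served as alternatives, beside other normalizations and filters, limma on log2(TPM + 1), near copies summed and each library left out. The steps were tested on simulated data. The smallest p an exact permutation test allows for 3 against 4 mice is 0.0286. The p-values set the difference between ages against the spread between these mice, which is estimated in part from other genes. The labels give no batch.

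The members, lists, motifs and the rule for named genes were chosen with earlier results of these data known. Named were all members, the listed partners and other family genes past the threshold or without overlap between ages, and the 2 genes with the profile nearest to each member of at least 10 CPM. Other named partners, family genes and markers were added outside this rule, after their values were seen. Members' values were compared over samples only. In the microglia marker list, 1 gene is not reported here and was left out of the sums.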

Additional observations from a re-analysis of the deposited data

Results flagged for a closer look

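Of 25 results examined for 1 young mouse far from the other 3, 2 stood out, where chance alone gives about 1.25. The summed level of the monocyte markers was 492 CPM in young mouse 14C and 183 to 223 CPM in the other young mice, so the gap took up 0.873 of the whole range. Most of this sum was Fn1, at 405 CPM in 14C and 166 to 199 CPM in the other young mice. A sum without Fn1 was not examined. The summed level of the neutrophil markers was 143 CPM in young mouse 29C and 17.0 to 21.8 CPM in the others, a gap of 0.962 of the range. Neither mouse stood out in any of the 8 Ms4a genes by the same measure. Groups of 3, such as the old mice with 3posI among them, were not examined in this way.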

How the results depend on the processing

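Over 136 values of single Ms4a genes under other settings, 129 kept their direction and their side of the threshold, 5 kept the direction and passed it, and 2 changed direction (Ms4a4a at -0.92 and Ms4a6b at -0.000497, both without old mouse 3posI). Leaving out each library gave -0.92 to 1.69 for Ms4a4a and -0.000497 to 0.84 for Ms4a6b. In place of 0, 1 of the 8 Ms4a genes passed at an adjusted p of 0.1, 1 without the filter on low counts and 1 with the effective-length offset (Ms4a4b each time), and 3 passed with DESeq2. With any 1 library left out it was 0 in all 7 fits. Over all genes, 141 passed in the main comparison, 1399 with DESeq2, 288 without the filter, 64 with limma on log2(TPM + 1) and 71 on log2(TPM + 0.1). With 1 library left out this was 1 to 159. The 3 fits that lacked 14C, 18C or 2posI each called 1, and those that lacked 29C, 23C, 4posI or 3posI called 2, 14, 85 and 159. Those fits have fewer samples, and otherwise the cause was not tested. With limma-voom, RLE or upper-quartile factors, filterByExpr or the sex and mitochondrial chromosomes kept, the number of Ms4a genes called stayed at 0. Ms4a4b and Ms4a8a rest on few reads in young mice, which limits their fold changes. No paired analysis was possible because the labels give no replicate numbers or pairs.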
